A study of Rattus norvegicus with 39 samples.

Results

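The members described here were long noncoding RNA entries of RNAcentral, a database that merges noncoding RNA sequences from many sources, as counted in rat sperm small RNA libraries. They were selected on their summed count: the 300 rows typed lncRNA with the most counts over all 39 libraries, out of 22898 such rows and 78572 RNAcentral rows. One pair of members (rank 277) held identical counts and was treated as 1, which left 299 count patterns. The last row inside held 430 counts and the first row outside held 427. Since that sum chose the members, their abundance is a description. The deeper libraries weighed more in that choice, and dosed males had the higher mean depth.

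Male Fischer rats, wild type and 11 to 12 weeks old by the labels, received the solvent ethylene glycol monomethyl ether (EGME), known as a testicular toxicant, or its water vehicle by gavage for 5 days. Sperm were taken from the cauda epididymis after 5 weeks without dosing, and each library held the total RNA of 1 male. The control group EGME0 (water, 0 mg/kg/d) had 10 males, and EGME50, EGME60 and EGME75 (50, 60 and 75 mg/kg/d) had 10, 9 and 10. Libraries were run on 13 chips of 3 libraries each, the batch that the labels give, with the doses mixed over the chips.

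Long noncoding RNAs are transcripts that do not encode a known protein, and many act in the nucleus on chromatin, splicing or the structure of nuclear bodies. Mature sperm transcribe little, and their small RNA is known to be rich in fragments of ribosomal and transfer RNA, so counts on a long entry in such a library come from short pieces that match it. None of the 300 members carried a gene name, only an RNAcentral identifier. A search of these names for 51 well known long noncoding RNA symbols, such as Malat1, Neat1, Meg3 or H19, could therefore find none. The identifiers matched 0 entries of the RefSeq table for the rat assembly GRCr8, which was not searched by sequence or position. Neither search can show which genes the members are. The members are therefore named by rank of summed count, and their sequences, lengths and genome positions were not used here. Fold changes compared males for 1 member at a time. Where counts or CPM are set side by side between members, no account was taken of length.

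RNAcentral counts per library ran from 98123 to 12856657 (median 2584766), and group means were 1935866 in control, 2408270 at EGME50, 4890330 at EGME60 and 3311467 at EGME75. Members took 6368 to 952097 counts per library, and 101 to 298 of the 299 patterns had at least 1 count in a library. The shallowest library, EGME75 replicate 24, detected the fewest. Only 32 members were detected in all 39 libraries. For 6 members, more than 50 percent of the counts came from 1 library, among them rank 153, with 95.82% of its 814 counts from EGME0 replicate 33. The labelled sperm was checked against 6 germ cell microRNAs of the miR-34 and miR-449 families, which made up 26.3% ± 4.35 of mature microRNA counts in control (SD, n = 10), although miR-449c-5p was at 0 in every control library.

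The class was carried by very few entries. The members held 92.83% of the 5575427 lncRNA counts. Of the member counts pooled over libraries, rank 1 held 46.61%, rank 2 another 38.75%, and ranks 3 to 10 added 7.415%. The pool weighs deep libraries most: EGME60 replicate 38 alone gave 764872 of the 2412648 counts of rank 1. As a mean over the 39 libraries, rank 2 led with 47.58% ± 20.65 of member counts, against 31.96% ± 23.8 for rank 1 (SD). The median member had 827 counts over all libraries, against 567 for the median of the 2757 RNAcentral rows tested.

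**Figure D1:**
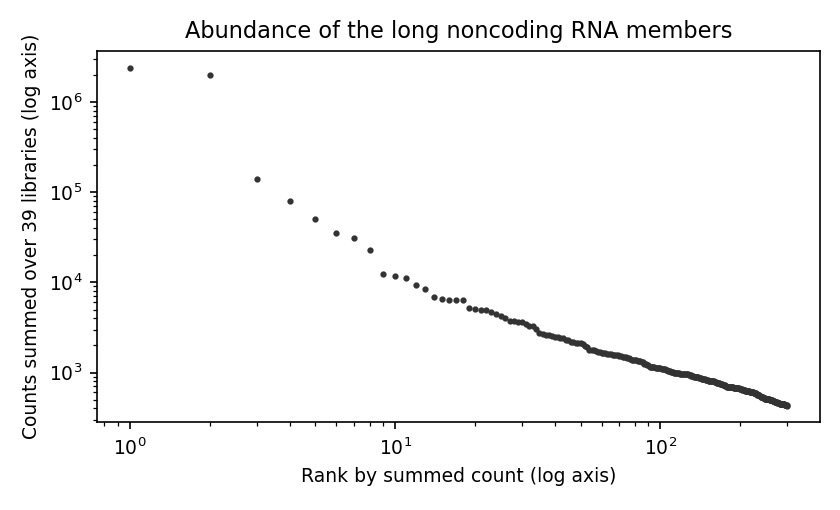
Counts of each of the 299 member patterns summed over 39 libraries (vertical, log axis) against rank (horizontal, log axis); each point is 1 pattern. Ranks 1 and 2, at 2412648 and 2005331 counts, sit far above rank 3, at 138818.

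Rank 1 (URS0000B2BD89 in RNAcentral) rose with dose and replaced rank 2 as the leading entry, while the share of the class as a whole did not pass its test. Rank 1 made up 10.35% ± 4.45 of the member counts in control (SD, n = 10), 21.54% ± 11.6 at EGME50 (n = 10), 37.74% ± 23.8 at EGME60 (n = 9) and 58.79% ± 16.1 at EGME75 (n = 10). Rank 2 went the other way, with 66.11% ± 9.20, 53.99% ± 12.6, 45.38% ± 21.3 and 24.63% ± 11.7. At EGME75 the lowest rank 1 share, 27.74%, lay above the highest in control, 18.58%. The rank 1 share differed from control in permutation tests on group means (two-sided, exact at EGME60, adjusted over the 3 doses) at EGME50 (adjusted p = 0.00784), EGME60 (0.000357) and EGME75 (6e-05), with 9 of 10, 8 of 9 and 10 of 10 males above the control median. Rank 1 took its place through a sum that included the dosed libraries, so these p-values describe it and are no independent test. The share of the 10 most abundant members together did not pass the test at any dose (89.21% ± 4.76 in control and 91.15% ± 4.63 at EGME75, adjusted p = 0.549).

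All rows named lncRNA together took 4.319% ± 1.79 of RNAcentral counts in control, 3.99% ± 0.935 at EGME50, 4.592% ± 1.46 at EGME60 and 5.309% ± 1.25 at EGME75 (SD). The differences from control were -0.328, 0.273 and 0.991 percentage points, none past the permutation test (adjusted p = 0.722, 0.722 and 0.498), and 9 of 10 males at EGME75 were above the control median. The control group ranged from 2.524% to 8.329%, and the upper end was EGME0 replicate 33. Without rank 1, an alternative chosen with the results in view, the class fell by 1.55 percentage points at EGME75 (from 3.931% ± 1.61 to 2.381% ± 0.972, adjusted p = 0.0341 by permutation). Rank 1 itself went from 0.388% of RNAcentral counts in control to 2.928% at EGME75, and rank 2 from 2.521% to 1.162%. The other members together held 0.809% ± 0.183 in control and 0.847% ± 0.806 at EGME75, where replicate 24 alone stood at 3.105%.

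These shares depend on what the class is divided by. Rows typed rRNA took 44.0% ± 7.29 of RNAcentral counts in control, 44.0% ± 7.16 at EGME50, 55.6% ± 16.1 at EGME60 and 72.5% ± 10.7 at EGME75. Rows typed tRNA took 42.4% ± 7.08, 41.7% ± 7.78, 31.96% ± 16.2 and 16.1% ± 9.38. With rRNA rows left out of the total, the lncRNA share was 8.045% ± 4.22 in control and 22.2% ± 8.41 at EGME75. The difference was 14.16 percentage points (adjusted p = 0.00066 by permutation, 10 of 10 males above the control median). Rank 1 stayed in this share, though its count kept a near constant ratio to that of an rRNA row, as given below. It rose from 0.388% of all RNAcentral counts in control to 2.928% at EGME75. Its part in the difference was not tested.

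**Figure D2:**
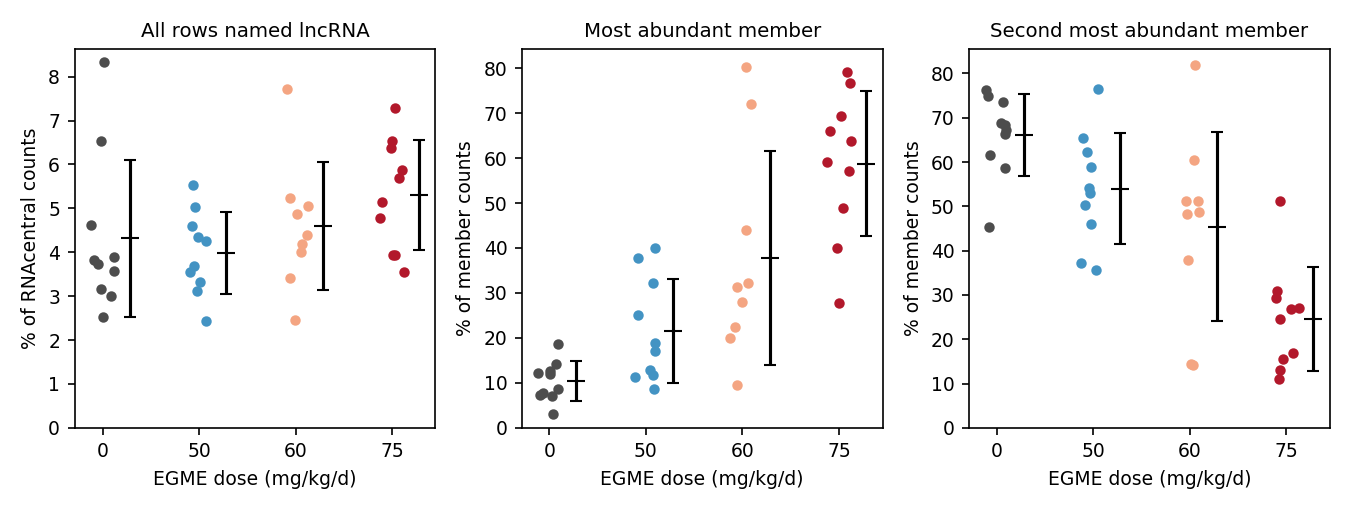
Left, counts on all rows named lncRNA as a percent of RNAcentral counts; middle and right, the most abundant and second most abundant member as a percent of member counts, by EGME dose (mg/kg/d). Each point is 1 male and bars are mean ± SD; the class share overlaps between all doses, while the most abundant member moves from 10.35% to 58.79% of member counts and the second from 66.11% to 24.63%.

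The level of rank 1 was measured as CPM, the count scaled to 1000000 RNAcentral counts of the library. In control it had a minimum of 1034, a median of 3020 and a maximum of 7934 CPM. At EGME50 these were 1698, 6439 and 19229 CPM, at EGME60 4426, 12759 and 59492, and at EGME75 9598, 27920 and 45932. EGME75 did not overlap control, and the lower doses overlapped it. In the fit over all RNAcentral rows (edgeR quasi-likelihood test, TMM scaling, Benjamini-Hochberg adjusted), rank 1 was higher by 3.97 ± 0.710 on the log2 scale at EGME60 (SE, adjusted p = 1.565e-05) and by 4.04 ± 0.706 at EGME75 (adjusted p = 7.319e-06). At EGME50 the log2 fold change was 1.20 ± 0.633 and did not pass (adjusted p = 0.524). Scaling by library totals alone gave a log2 fold change of 2.89 at EGME75, still past the threshold, and all 39 fits that left out 1 library kept the calls at EGME60 and EGME75.

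Rank 2, the leading entry of control sperm, had control values from 11976 to 47703 CPM (median 23083). Its range was 10545 to 36728 at EGME50 (median 16760), 5073 to 41922 at EGME60 (median 17297) and 3633 to 17698 at EGME75 (median 11067). None of the 10 males at EGME75 reached the control median, though the groups overlapped. Its call depended on the scaling: the log2 fold change at EGME75 was -0.25 ± 0.513 with TMM (edgeR, adjusted p = 0.714), -1.06 with RLE size factors (adjusted p = 0.0366) and -1.14 with library totals alone (adjusted p = 0.00595). TMM and RLE are scalings meant to set the bulk of rows level between libraries. Here the median log2 fold change of all rows at EGME75 was still -0.62 with TMM and -1.38 with RLE. The median TMM factor was 1.395 in control and 0.668 at EGME75. At EGME60 even its direction turned, 0.92 with TMM and -0.46 with totals, neither past the threshold.

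Rank 7 was the other member of the 10 most abundant that was called higher. Its control values ran from 13.6 to 135.4 CPM (median 41.2), against 15.1 to 896 at EGME60 (median 208.9) and 131.6 to 885.5 at EGME75 (median 318.5). The groups at EGME75 and control touched only at the edge, where the highest control exceeded the lowest dosed male. Its log2 fold change was 4.07 ± 0.743 at EGME60 and 4.38 ± 0.748 at EGME75 (edgeR, adjusted p = 2.235e-05 and 5.576e-06). No other member of the 10 most abundant was called at any dose with TMM. Ranks 3, 4, 5, 8 and 10 had TMM log2 fold changes at EGME75 between -1.32 and 0.12, and were all called lower there with library totals alone, between -2.65 and -0.80. DESeq2 also called all of them lower at EGME75, and RLE size factors called ranks 4, 5, 8 and 10. With TMM and chip as a fixed block none of them was called there.

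Some of the abundant members moved in step with rows of other RNA types. For each member with at least 50 counts in at least 30 libraries, the row of another type whose count ratio to it varied least over libraries was found among 279 candidates, after the data had been seen. Rank 1 held 2.002 times the count of an unnamed rRNA row (median of 39 libraries), with a lowest ratio of 1.999 and a highest of 2.011. Rank 7 held 1.066 times the count of another rRNA row, between 1.014 and 1.127 over 32 libraries. The ratio for rank 1 thus varied by less than 1 percent while its own level spanned 1034 to 59492 CPM. Rank 2 followed a tRNA row less closely, at 10.04 times its count with a range of 7.668 to 15.49 over 39 libraries. Rank 8 stood at 0.2205 times the count of the piRNA entry piR-rno-49042, with a range of 0.1785 to 0.2883 over 34 libraries. Of the 15 members with a candidate, 4 had an SD of the log2 ratio under 0.25 and 8 under 0.5. Whether the same reads were counted on both rows of such a pair was not tested, as the files give counts and no reads.

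**Figure D3:**
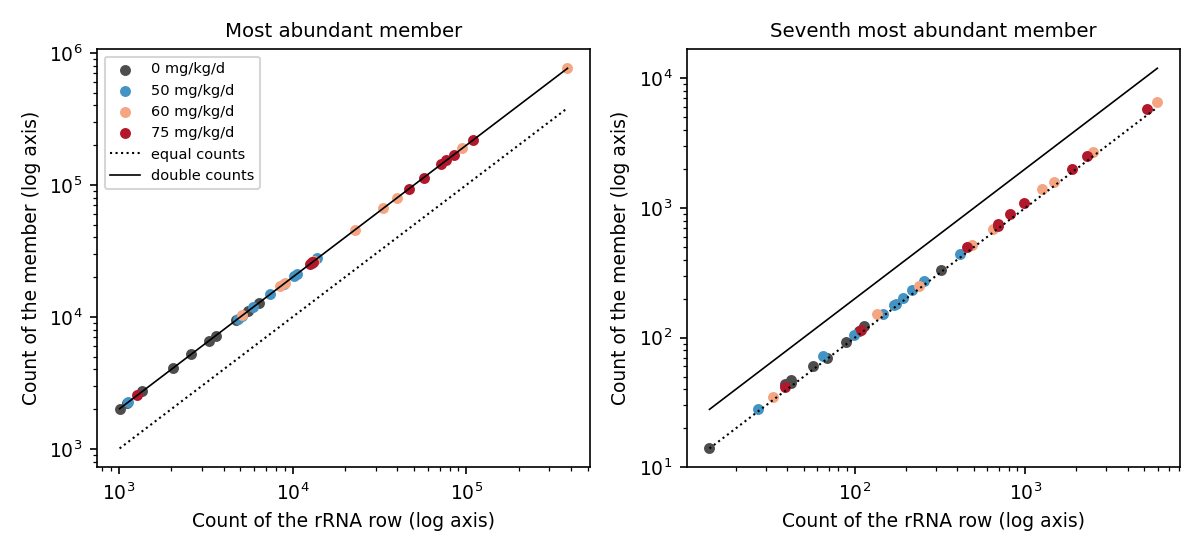
Count of the most abundant (left) and the seventh most abundant member (right) against the count of the rRNA row whose ratio to it varied least, both on log axes, 1 point per library coloured by dose. The left points lie on the line of double counts at every dose, with ratios of 1.999 to 2.011, and the right points lie close to the line of equal counts.

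Ranks 6, 16, 17 and 18 formed a set of their own. Ranks 16 and 18 had a median count ratio of 1.015 (0.988 to 1.08 over 36 libraries), ranks 17 and 18 one of 1 (0.976 to 1.097), and rank 6 held 5.714 times the count of rank 17 (4.191 to 7.691). Rank 6 ranged from 15.3 to 1914 CPM in control (median 390.5), from 99.9 to 2907 at EGME50 (median 325.3), from 13.8 to 492.7 at EGME60 (median 198.3) and from 55.7 to 16459 at EGME75 (median 396.9). The top value was EGME75 replicate 24, the shallowest library, and the next male of its group had 829.6 CPM. No member of the set was called at any dose with TMM, and rank 6 at EGME75 had a log2 fold change of 1.64 ± 0.752 (edgeR, adjusted p = 0.0773), which was 0.47 ± 0.689 without replicate 24 (adjusted p = 0.607). With library totals alone rank 6 was called higher at EGME75, at 1.97 (adjusted p = 0.0331), and 10 of the 39 TMM fits that left out 1 library called it. It was not called there with chip as a fixed block, at 1.06 (edgeR, adjusted p = 0.322). DESeq2 gave the other direction, at -0.35 (adjusted p = 0.568).

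Beyond the leading entries, most called members were higher in dosed sperm, and these had low counts in control sperm. Of 293 patterns tested, 128 rose and 3 fell at EGME60, and 120 rose and 37 fell at EGME75 (edgeR quasi-likelihood test, TMM, adjusted over all 2757 rows tested). That was 44.71% of members called at EGME60, beside 20.9% of all rows, and 53.58% at EGME75, beside 37.8%. By direction, 43.69% of members were higher at EGME60 (20.3% of all rows) and 1.024% lower (0.58%), and at EGME75 40.96% were higher (19.8%) and 12.63% lower (18%). At EGME50, 18 members rose and 0 fell, 6.143% beside 1.52% of all rows (1.49% higher and 0.0363% lower). There 69 of the 293 members had an unadjusted p below 0.05, beside 295 of the 2757 rows. The slope on dose called 124 members higher and 16 lower, 47.78% beside 27.8% of all rows (19.9% higher and 7.91% lower). Members had more counts than the other rows and were chosen with the dosed libraries in the sum, so the shares describe the members and are no test of the class.

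The median log2 fold change of members was 0.49, 1.04 and 0.90 at the 3 doses in order, against 0.06, -0.16 and -0.62 over all rows tested. Members called higher at EGME75 had a median log2 fold change of 5.21 (1.63 to 9.17), and 102 of the 120 exceeded 3. Those called lower spanned -4.52 to -1.16. Pooled over the group, the 120 had a median of 0.672 CPM in control and 10.6 CPM at EGME75. The 37 lower members went from 13.6 to 1.87 CPM and the 136 not called from 11.1 to 4.15 CPM. The 120 were detected in a median of 6 of the 10 control libraries, and 57 of them in 5 or fewer. Those with few control counts passed the filter mostly through dosed libraries, so their calls are no independent test. The same split ran through the abundance ranks: 36 of 90 tested members from rank 11 to 100 rose at EGME75, 41 of 99 in the next 100 ranks and 41 of 94 in the last 100.

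**Figure D4:**
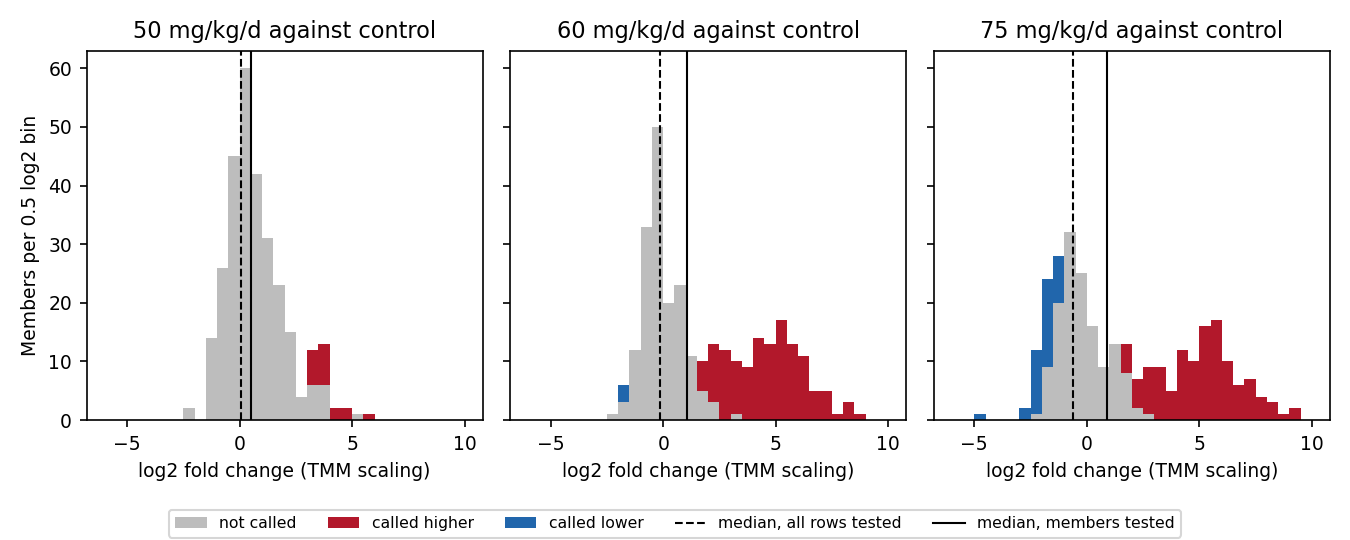
Members per bin of 0.5 log2 fold change (TMM scaling) against control at each dose, coloured by call (edgeR adjusted p under 0.05); the solid line is the median of the 293 members tested and the dashed line that of all 2757 rows. At 60 and 75 mg/kg/d the called higher members had medians of 4.70 and 5.21. At 75 mg/kg/d the members not called spanned -2.12 to 2.74 and those called lower -4.52 to -1.16.

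Most calls made with TMM held under the other scalings, and the falls were lost more often than the rises when chip was a block. Of the 120 higher and 37 lower members at EGME75, 107 and 37 were called the same way under TMM, RLE and library totals alike, and 103 and 14 of these were called as well when chip was a block and by DESeq2. At EGME60 94 were higher and 1 lower under all 3 scalings, and 91 and 0 with chip and DESeq2 as well. For the slope these counts were 106 and 16, then 103 and 5, and at EGME50 14 and 0, then 0 and 0. How many of all rows kept their calls in this way was not counted, so these counts describe the members only. The split of calls moved with the scaling at EGME75, from 120 higher and 37 lower with TMM (76.43% higher) to 111 and 98 with RLE (53.11%), 110 and 80 with totals (57.89%), 115 and 17 without the filter on low counts (87.12%), 110 and 15 with chip (88.0%) and 118 and 104 with DESeq2 (53.15%). For the slope it moved from 124 and 16 (88.57%) to 111 and 55 with RLE (66.87%), 106 and 47 with totals (69.28%) and 118 and 81 with DESeq2 (59.30%). At EGME60 it went from 128 and 3 (97.71%) to 115 and 21 with DESeq2 (84.56%). The split over all rows moved too. At EGME75, 52.45% of all called rows were higher with TMM, 26.55% with RLE, 32.54% with totals and 26.19% with DESeq2. Without the filter that share was 65.14%, and with chip 71.39%. For the slope it was 71.54% with TMM, 40.08% with RLE, 54.91% with totals and 32.57% with DESeq2. At EGME60 it was 97.22% with TMM and 71.08% with DESeq2. The median of all rows at EGME75 was -0.62 with TMM, -1.38 with RLE and -1.32 with totals, and the member median was 0.90, 0.01 and -0.09, so the member median lay above that of all rows under each.

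At EGME75 the count of lower members fell below 25 without EGME0 replicate 18 (7), EGME50 replicate 4 (11), EGME0 replicate 1 (12), EGME0 replicate 10 (15), EGME50 replicate 19 (17), EGME60 replicate 29 (18), EGME50 replicate 27 (20) or EGME0 replicate 9 (21). The count of higher members stayed between 117 and 133 over all 39 fits that left out 1 library.

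Markers of other cell types moved with dose in the same males. The 5 epithelial microRNAs (the miR-200 family) made up 0.861% ± 0.207 of mature microRNA counts in control (0.625 to 1.288) and 2.92% ± 1.004 at EGME75 (1.81 to 4.77), which did not overlap. The 4 muscle microRNAs made up 1.77% ± 0.727 (0.954 to 3.27) and 4.43% ± 2.69 (1.12 to 9.80), with miR-1-3p at 0 in all EGME75 libraries. The 6 blood cell microRNAs found of 7 listed made up 0.145% ± 0.0982 (0 to 0.343) and 1.26% ± 1.36 (0.248 to 4.82), with miR-144-3p at 0 in both groups. The 6 germ cell microRNAs went from 26.3% ± 4.35 (19.8 to 33.1) to 13.9% ± 4.60 (6.48 to 22.1). The part of these cells in the rises was not tested, and in such bulk samples fewer cells of a type and less RNA per cell cannot be told apart.

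Rank 47 (URS0000AA60AA) was among the strongest risers at every dose. It was found in 2 of 10 control males, at 0 to 0.302 CPM, and in 9 of 10 at EGME50 (0 to 28.3, median 3.46). It was found in 8 of 9 at EGME60 (0 to 77.5 CPM, median 5.21) and in 10 of 10 at EGME75 (5.35 to 132.5, median 29.3). EGME75 did not overlap control. With 2 counts in all control libraries against 1197 at EGME75, the ratio of pooled CPM was 349.9, with an exact interval for counting error alone of 96.7 to 2892. The EGME50 call was lost with chip as a fixed block. The fitted log2 fold changes were 5.85, 8.56 and 9.09 (edgeR, adjusted p = 0.00685, 4.75e-06 and 7.04e-07), and their size depends on the small count added for rows near 0. Rank 47 was selected and passed the filter almost wholly through dosed libraries, so its calls are no independent test.

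Rank 23 was called at every dose. Its values were 0 to 9.36 CPM in control (median 2.71), 0 to 489.4 at EGME50 (median 15.4), 9.49 to 92.8 at EGME60 (median 39.7) and 14.9 to 132 at EGME75 (median 38.3). Neither EGME60 nor EGME75 overlapped control, and 1 male at EGME50 set the top of its group. Its log2 fold changes were 4.48 ± 0.964, 5.11 ± 0.995 and 4.63 ± 0.970 (edgeR, adjusted p = 0.00685, 5.37e-05 and 0.000124). With chip as a fixed block the EGME50 value was 2.48 (adjusted p = 0.284).

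Ranks 65, 79, 80 and 103 shared this low start. Each was found in at most 2 control males, with no control above 1.49 CPM. These members were selected and passed the filter almost wholly through dosed libraries, so their calls are no independent test. Their medians at EGME75 were 18.2, 22.4, 25.8 and 10.7 CPM, in 9, 10, 10 and 9 of 10 males. Their fitted log2 fold changes at EGME75 lay between 7.51 and 8.38, and those at EGME60 between 6.59 and 8.15, all called. At EGME50, ranks 65, 80 and 103 were called at 4.94, 4.71 and 4.35 (edgeR, adjusted p = 0.0146, 0.0242 and 0.0319), none of them with chip as a fixed block, and rank 79 was not called, at 3.89 (0.0851).

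The members at 0 in every control male were ranks 170, 198 and 269. Rank 170 had 442 counts over 9 of 10 males at EGME75, and against the limit that 3 counts over the control group set (0.155 pooled CPM) it was at least 86.1-fold higher. Ranks 198 and 269 had 281 counts each at EGME75, in 9 and 10 of 10 males, at least 54.8-fold higher by the same limit. At EGME60 the bounds were 38.3, 54.3 and 28-fold, with 6, 7 and 6 of 9 males detected. Ranks 170, 198 and 269 were all called higher at both doses (edgeR adjusted p between 7.04e-07 and 9.59e-05). Having no control counts, ranks 170, 198 and 269 were selected and passed the filter through dosed libraries alone, so their calls are no independent test. Placing them at their EGME75 bounds could not move the median log2 fold change of called higher members, 5.21, as the bounds lie above it.

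In all, 36 of the 293 members, 12.29%, had every EGME75 male above every control male in CPM, beside 7.98% of all rows tested, and 1 member, 0.341%, had every EGME75 male below every control, beside 1.41%. That member was rank 243 (URS0000B30A2C). It had 5.43 to 22.8 CPM in control (median 11.3), 2.96 to 20.4 at EGME50 (median 6.30), 0 to 9.44 at EGME60 (median 3.37) and 0 to 4.21 at EGME75 (median 0.330). Its log2 fold change at EGME75 was -2.96 ± 0.654 (edgeR, adjusted p = 0.000263), and the values at EGME50 and EGME60, -0.65 and -0.79, did not pass. With chip as a fixed block the EGME60 value was -2.08 and passed (adjusted p = 0.0491), and the EGME75 value was -3.07 (adjusted p = 0.0019). All 39 fits leaving out 1 library kept the EGME75 call.

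Rank 14 (URS0000B25AE7) fell the most. Its control values were 4.35 to 1189 CPM (median 81.2), followed by 1.89 to 839.4 at EGME50 (median 62.4), 1.20 to 156.3 at EGME60 (median 4.77) and 0 to 18.3 at EGME75 (median 1.997). None of the 10 males at EGME75 reached the control median, and the lowest controls lay within the dosed range. Its log2 fold change was -4.52 ± 0.953 at EGME75 (edgeR, adjusted p = 0.000138), and at EGME60 it was -2.23 ± 0.879 (adjusted p = 0.0672). All 39 fits leaving out 1 library kept the EGME75 call.

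The other named members that fell were low throughout. Ranks 49, 214, 233, 238 and 292 were called lower at EGME75, with log2 fold changes of -2.27, -2.55, -2.30, -2.33 and -2.49 and medians of 40.7, 11.4, 11.1, 9.18 and 4.73 CPM in control against 4.65, 0.508, 1.01, 0.277 and 0.468 at EGME75. Of these, ranks 214, 233 and 238 were also called with chip as a fixed block. The 3 members called lower at EGME60 were ranks 225, 259 and 277, at -1.54, -1.73 and -1.92 (edgeR, adjusted p = 0.0487, 0.022 and 0.0211). None of these 3 was called at EGME60 with chip as a fixed block, and the fits that left out 1 library called them in 19 of 39, 37 of 39 and 27 of 32, rank 277 having been tested in 32. All 3 were also called lower at EGME75, at -1.61, -1.79 and -1.80, and none of them there with chip.

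**Figure D5:**
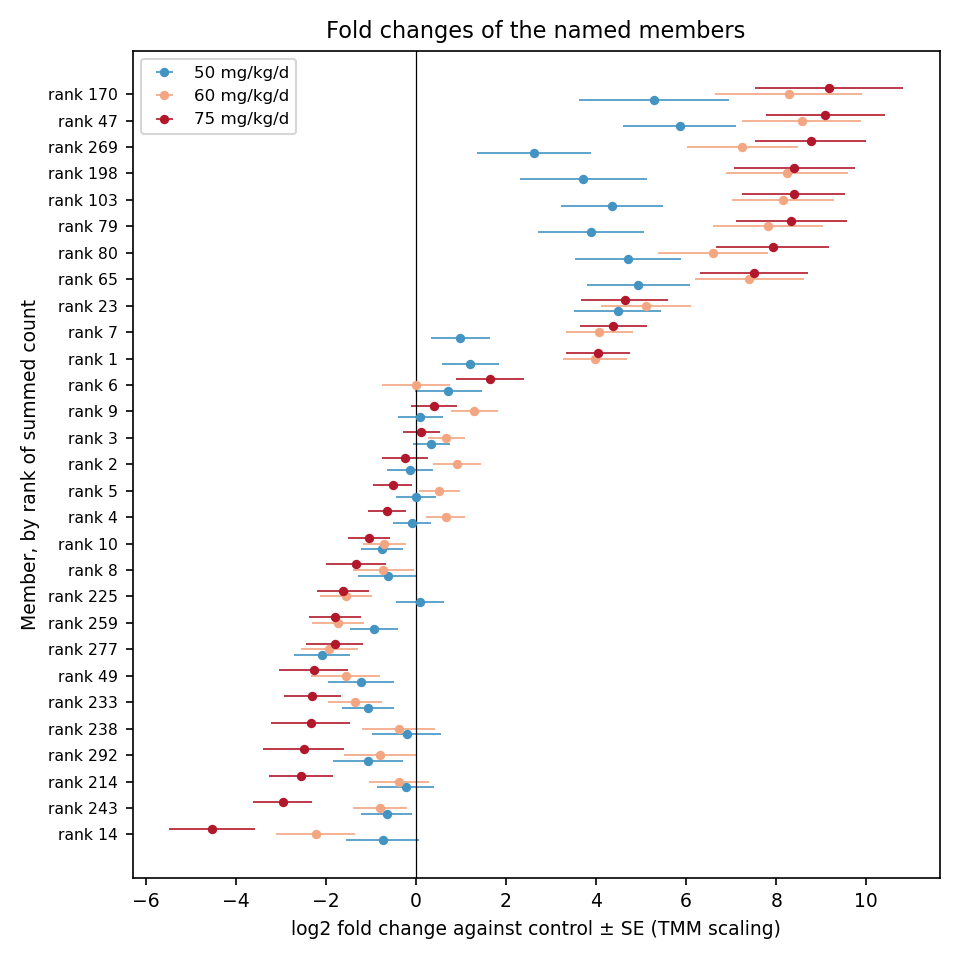
Log2 fold change against control ± SE (edgeR, TMM scaling) of the named members at each dose, ordered by the value at EGME75; ranks 170, 198 and 269 were at 0 in every control, so their points depend on the small count added. Ranks 1 and 7 lie near 4 at EGME60 and EGME75, the low members near 8 and the called lower ones between -4.52 and -1.61 at EGME75.

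At the dose level, the members called higher with TMM had like fitted values at EGME60 (1.59 to 8.56, median 4.70) and EGME75 (1.63 to 9.17, median 5.21). Lower calls differed, with 3 at EGME60 and 37 at EGME75. The difference between those doses was not tested. The 18 calls at EGME50 became 0 with chip as a fixed block (edgeR, 41 at unadjusted p below 0.05) and 24 with DESeq2, and leaving out 1 library gave 3 to 34. Of all 2757 rows, 42 were called at EGME50 with TMM, 0 with chip as a fixed block and 65 with DESeq2.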

How the data were processed

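Small RNA from cauda sperm of 39 rats was sequenced from 10 ng of total RNA with the Ion total RNA-seq kit, per the labels' protocols. The authors deposited 4 tables of raw read counts per feature, and the RNAcentral sense table was used here, beside the mature microRNA table for marker sums. The submitters' processing notes name FastQC, Bowtie and DESeq2. Their versions and the treatment of reads matching several entries were not given in the sources used here. The deposited counts name the rat assembly Rnor_6_0, which differs from that of the RefSeq search. Entries that share sequence are uncertain, and 32560 RNAcentral rows, rows of zeros included, repeated the counts of another row.

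Counts were fitted over all 39 libraries with edgeR 4.0.16 in R 4.3.3 (limma 3.58.1, data.table version 1.17.8): TMM scaling, filterByExpr by group, robust quasi-likelihood fits, two-sided tests of each dose against control and of a slope on dose (printed as the change over 75 mg/kg/d), Benjamini-Hochberg adjusted over 2757 rows, threshold 0.05. The filter removed 6 members (ranks 153, 228, 255, 261, 264 and 273). CPM values use RNAcentral totals and no TMM factor, so a CPM ratio and a fitted fold change can differ. Shares were compared by two-sided permutation tests (100000 draws, or exact with 9 males in a group) and adjusted over 3 doses, with identical rows entered once. Intervals (exact, 95%) and limits (3 counts) cover counting error only. Alternatives were RLE size factors, library totals, no filter, identical rows collapsed, chip as a fixed block, DESeq2 1.42.0, and leaving out each library; shares without rank 1 or ranks 1 and 2, and with chip, were added after seeing the data. The fit was tested on simulated data. The rest used pandas 2.3.3, numpy 2.4.6, matplotlib 3.10.9 and scipy 1.17.1. Unmatched columns numbered 0.

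Named members were the 10 most abundant patterns, the 5 highest and 5 lowest called fold changes (mean count 10 or more) at EGME60, EGME75 and the slope, up to 5 each way at EGME50, and members with a known symbol. The members, lists and rules were chosen with earlier results of these data known.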

Additional observations from a re-analysis of the deposited data

Results flagged for a closer look

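Groups of the 10 most abundant members and class measures were examined with Dixon's gap test, 48 in all. In 10 of them the highest male stood far above the rest of its group. Chance alone flags about 1 in 20 groups of normally distributed values. CPM values could be skewed upward, as for rank 8 in control (mean 386.5, median 205), so the 10 flags cannot be set against that rate. At EGME60, replicate 38 had 59492 CPM of rank 1 (next 25612) and replicate 6 had 41922 CPM of rank 2 (next 22712) and 256.4 CPM of rank 9 (next 148.2). Without EGME60 replicate 38 the group had 125 members called higher and 2 lower, and without replicate 6 it had 129 and 5. Replicate 5 of EGME60 had 289 CPM of rank 10 (next 129), and replicate 30 had 650 CPM of rank 8 (next 305.2).

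Rank 6 stood out in the shallowest library of each end of the dose range: EGME75 replicate 24 had 16459 CPM (next 829.6) and EGME0 replicate 33 had 1914 CPM (next 646.5). Without replicate 24 the EGME75 mean of rank 6 was 387.7 ± 282.7 CPM (SD, n = 9), and 119 members were called higher and 29 lower at EGME75. Rank 7 had 135.4 CPM in EGME0 replicate 9 (next 75.8) and 885.5 CPM in EGME75 replicate 7 (next 464.8). Rank 8 had 1175 CPM in EGME50 replicate 4 (next 620.9).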

How the results depend on the processing

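No paired analysis was possible because a replicate number names 1 male and recurs in no other group. At EGME75 and EGME60, leaving out rank 1 turned the class share difference to -1.55 (adjusted p = 0.0341 by permutation) and -1.121 percentage points. Leaving out ranks 1 and 2 turned it to -0.191 and -0.442. With rRNA rows out of the total and rank 1 kept in, the EGME75 difference was 14.16. The share of rank 1 alone, in place of the 10 most abundant, differed by 11.19, 27.39 and 48.44 percentage points at the 3 doses. Leaving out 1 library moved the class share difference from -0.528 to 0.117 at EGME50 (above 0 without EGME0 replicate 33) and from -0.118 to 0.719 at EGME60 (below 0 without EGME60 replicate 38), and the top 10 share difference at EGME50 from -1.68 to 0.473, at EGME60 from 1.599 (without EGME0 replicate 18) to 3.282, and at EGME75 from 1.116 (without EGME0 replicate 18) to 3.083 (without EGME75 replicate 24). The members called at EGME50 numbered 0 with chip as a fixed block (edgeR) and 3 to 34 when 1 library was left out: 3 without EGME50 replicate 12 or 20, 5 without EGME0 replicate 2, 6 without EGME50 replicate 36, 8 without EGME0 replicate 25 or 34 or EGME60 replicate 5, 9 without EGME0 replicate 17, 11 without EGME0 replicate 10, 33 without EGME50 replicate 4 and 34 without EGME50 replicate 27. Of all rows tested, 0 were called at EGME50 with chip as a fixed block as well. At EGME60, EGME75 and for the slope the total of called members stayed within 1.5 times under every alternative run, while the lower calls alone did not. When 1 library was left out they ran from 3 (without EGME0 replicate 10) to 35 (without EGME50 replicate 3) for the slope. At EGME60 they ran from 0 (without EGME0 replicate 10) to 6 (without EGME50 replicate 20). RLE, library totals and DESeq2 gave 55, 47 and 81 lower members for the slope and 9, 5 and 21 at EGME60. Over all 2757 rows, lower calls for the slope numbered 218 with TMM, and 722, 372 and 1056 with these 3. At EGME60 they numbered 16 with TMM, and 89, 55 and 190. The cause was not tested. Members near 430 counts are few counts per library, which limits what their absence in a single library can show.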

Other observations

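The slope on dose named rank 269 as its largest rise, with a fitted log2 change of 12.13 over 75 mg/kg/d; it was at 0 in every control male, so the size depends on the small count added. Ranks 170, 47 and 198 followed at 9.78, 9.48 and 9.45. Rank 277, the pair of identical rows, was called lower for the slope at -2.07 (edgeR, adjusted p = 0.00172). The fit blocked by chip gave -0.97 and no call (adjusted p = 0.372). Its control mean of 12.6 ± 25.1 CPM (SD, n = 10) rested on 1 male at 82.6.

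Of the members not tested, ranks 228 and 255 had 74.32% and 81.03% of their counts from EGME60 replicate 6, and rank 264 had 63.62% from EGME60 replicate 29. Among tested members, 2 also drew most of their counts from 1 library, ranks 52 and 169, with 51.05% and 54.53% from EGME60 replicate 38. Rank 154 held counts identical to rows of other RNA types.

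Members with 1 to 3 counts over all controls numbered 18 of 299, and 50 had 10 or fewer.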
